A study of Drosophila melanogaster with 16 samples.

Results

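Genes of the testis and of sperm formation were followed in RNA from whole *Drosophila melanogaster* larvae. A list of 44 genes was made by their known roles in spermatogenesis, with earlier results of these data known. A gene was measured where an array probe set was named for it alone. This held for 41 of the 44 genes, out of 11981 genes with such a probe set. Of these, 38 were found under the listed symbol and 3 under a newer one: *Mst35Ba* and *Mst35Bb* stand on the array as *ProtA* and *ProtB*, and *rye* as *Taf12L*. *S-Lap1*, *S-Lap3* and *S-Lap4* had no probe set of their own and were not analysed here. The measured genes comprise 3 genes of entry into differentiation and meiotic division, 5 meiotic arrest genes of the *can* class, 4 of the *aly* class, 12 genes of spermatid structure, 3 of sperm chromatin, 11 comet and cup genes and 3 sperm leucyl-aminopeptidase genes.

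The study asked which genes differ between an α-amanitin-sensitive and an α-amanitin-resistant stock, and which respond to the toxin. Group 1 was Canton-S, the sensitive control stock, on non-toxic food (5 pools). Group 2 was Ama-KTT/M/2, a resistant stock made isogenic for chromosomes 2 and 3 with the X chromosome left unbalanced, on non-toxic food (5 pools). Group 3 was Ama-KTT/M/2 raised from the first instar on food with α-amanitin, a mushroom toxin that binds RNA-polymerase II (6 pools); the dose is 1.5 μg per g in the methods and 1.5 mg per g in the sample labels. Each pool held 10 late third-instar larvae, all still feeding, and each gave 1 array. Larvae were drawn at random across the tubes of a group on 1 morning, and a p-value here sets a difference against the spread from pool to pool. No source used here gives the sex of these larvae. No Canton-S larvae raised on the toxin are part of the comparisons, and groups 1 and 3 differ in both stock and food.

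In the fly testis, germ cells leave the stem cell niche, divide as spermatogonia and then grow as primary spermatocytes, in which most of the genes of later sperm formation are transcribed. Their transcription depends on the meiotic arrest genes, which encode testis versions of TATA-box-binding-protein-associated factors (TAFs, the *can* class) and subunits of the testis meiotic arrest complex (tMAC, the *aly* class). Many of the resulting mRNAs are stored and translated only in spermatids, while the comet and cup genes are transcribed after meiosis. The larval testis holds spermatogonia and growing spermatocytes, and a female larva has none of these cells.

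The main pattern lies between the foods. In Ama-KTT/M/2 larvae, the genes of sperm components were higher on α-amanitin than without it. None of the 12 early genes (entry, meiotic division and meiotic arrest) was called. For 12 genes this count is near the 1.83% of all probe sets called higher and does not set them apart. A gene was called at an adjusted p under 0.05 (limma, Benjamini-Hochberg over 18769 probe sets) with a difference of at least 2-fold; fold changes are on the log2(intensity + 16) scale, which understates those of dim genes. Of the 41 genes, 13 were called higher in group 3 versus group 2 and 0 lower, against 1.83% of all probe sets called higher and 1.11% called lower. The median log2 fold change was 0.45 over the 41 genes and 0.02 over all probe sets. When the stocks were compared without the toxin, 0 of the 41 genes were called higher in group 2 and 0 lower. Over all probe sets the shares were 3.27% and 2.42%. For a list of 41 genes, counts of 0 are near these shares and do not show that the stocks were alike. Without the fold limit, 2 of the 41 genes had a higher and 3 a lower level at an adjusted p under 0.05. All 18 genes of sperm components had a lower mean log2 value in group 2 (median -0.36), with 0 at that threshold. In whole larvae, fewer cells of a type and less RNA per cell cannot be told apart.

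**Figure D1:**
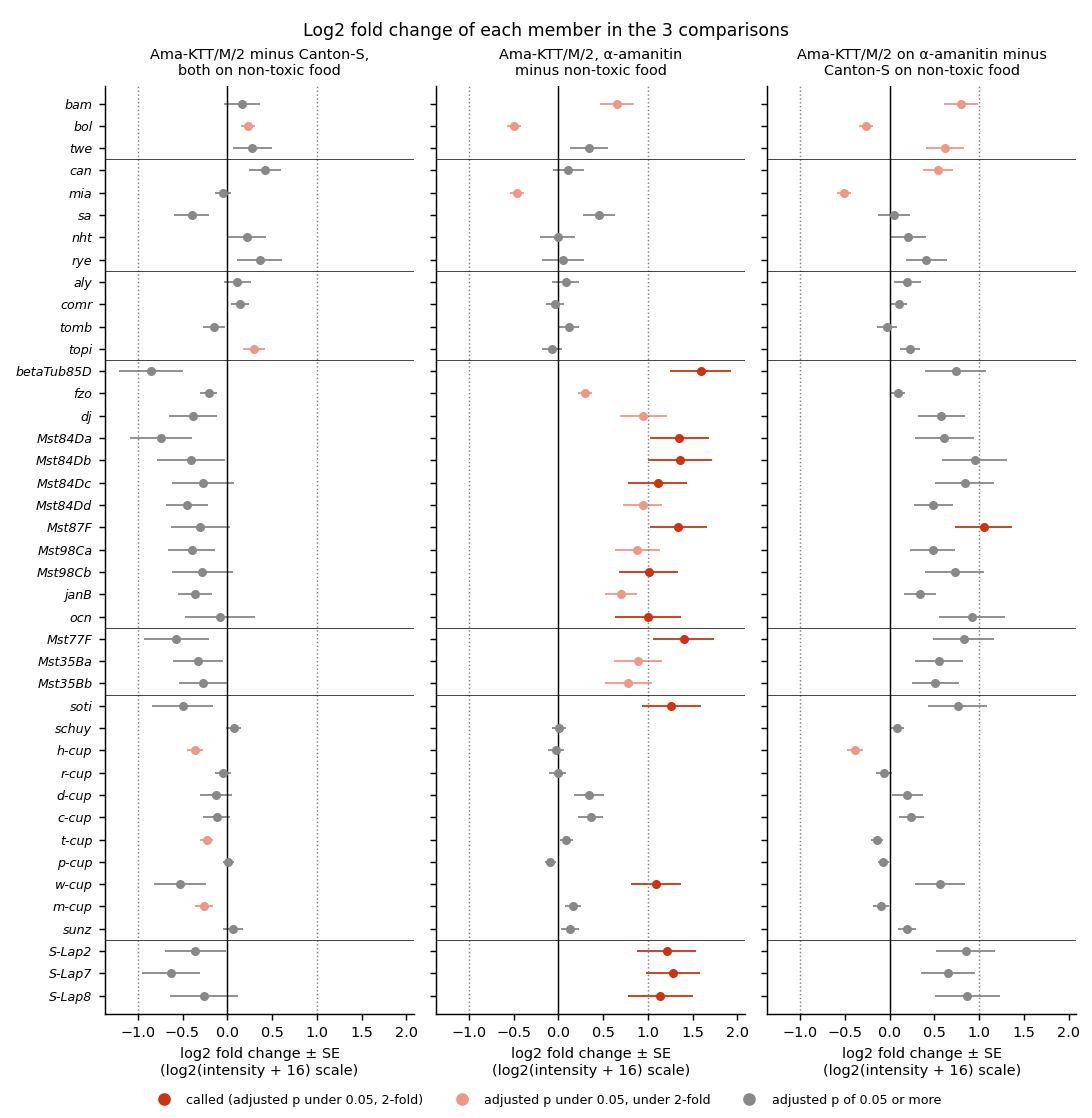
Log2 fold change (x axis, log2(intensity + 16) scale) of each of the 41 genes (y axis, ordered by role, with lines between roles) in the 3 comparisons; points are the limma estimates, bars their standard errors, and dotted lines mark 2-fold. The 13 genes called higher in the middle panel are all sperm component genes or the comet and cup genes *soti* and *w-cup*.

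The sperm component genes comprise the 12 genes of spermatid structure, the 3 of sperm chromatin and the 3 *S-Lap* genes. All 18 had an adjusted p under 0.05 in group 3 versus group 2, each with a higher level on α-amanitin, against 17.7% of all probe sets; 11 of the 18 were called. Their median log2 fold change was 1.06, with a range of 0.30 to 1.59. In 12 of the 18 every pool on α-amanitin lay above every Ama-KTT/M/2 pool on non-toxic food, a pattern found in 10.2% of all probe sets.

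The largest log2 fold change of the 41 genes was that of a spermatid gene. *betaTub85D*, the testis-specific β-tubulin of meiotic spindles and the sperm tail axoneme, had intensities of 44.6, 77.3, 37.7, 89.8 and 120 in the 5 pools of group 2, and of 529, 155, 145, 288, 262 and 199 in the 6 pools of group 3. Every pool on α-amanitin lay above every pool of the same stock on non-toxic food, with replicate 1 far above the rest. The log2 fold change was 1.59 (SE 0.34, adjusted p = 0.00211), a 3.01-fold difference. In Canton-S the pools had 64.4, 181, 158, 246 and 96.5, which overlap both other groups.

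The sperm-tail protein genes *Mst84Da*, *Mst84Db*, *Mst84Dc*, *Mst84Dd*, *Mst87F*, *Mst98Ca* and *Mst98Cb* encode related Cys-Gly-Pro-rich proteins. Of these 7 genes, 5 were called. *Mst87F* had 30.2, 43.9, 27.9, 61.2 and 76.8 in group 2 and 269, 79.6, 92, 200, 129 and 138 in group 3. Its groups did not overlap, although the highest pool on non-toxic food was close to the lowest on α-amanitin, and the log2 fold change was 1.34 (SE 0.32, adjusted p = 0.00372). *Mst84Da*, *Mst84Db*, *Mst84Dc* and *Mst84Dd* are direct neighbours on 3R in the Release 6 assembly. *Mst84Da* rose from 35.9 ± 18.5 (SD, n = 5) to 120 ± 65.5 (n = 6), and *Mst84Db* from 163 ± 70.4 to 464 ± 271. The pools of *Mst84Da* did not overlap between the foods, whereas for *Mst84Db* replicates 2 and 3 on α-amanitin, at 247 and 248, lay under the highest non-toxic pool, at 255. *Mst84Dc* was called with a log2 fold change of 1.11 (adjusted p = 0.0167), and *Mst84Dd*, with 0.94 (adjusted p = 0.00396), missed the fold limit. *Mst98Cb* just passed that limit (1.01, adjusted p = 0.0242) and its neighbour *Mst98Ca* did not (0.88, adjusted p = 0.011). Related genes of this kind can share probes' targets, so that the neighbours are not independent measurements.

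*ocn* and *janB* are neighbouring genes of the janus family that are expressed in the male germline. *ocn* had 74, 102, 52.8, 140 and 153 in group 2 and 518, 124, 126, 250, 232 and 183 in group 3. Replicates 2 and 3 on α-amanitin overlapped the non-toxic pools, and the call, with a log2 fold change of 1.00 and adjusted p = 0.0472, stood at both limits. *janB* had 0.70 (adjusted p = 0.00706). *dj* (don juan), a protein of the sperm tail, had a mean of 13.0 in group 2, under the floor of 16 below which an intensity was taken only as a bound, and of 43.0 ± 26.4 in group 3, at least 2.69-fold higher; its log2 fold change of 0.95 (adjusted p = 0.00875) missed the limit. *fzo*, which encodes the mitofusin of the spermatid nebenkern, was the member of this group with the smallest difference (0.30, SE 0.08, adjusted p = 0.00966), with 18.2 ± 1.95 in group 2 and 26.4 ± 5.03 in group 3.

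Among the sperm chromatin genes, *Mst77F*, a linker-histone-like protein that is packed with DNA in the sperm nucleus, had 132, 188, 126, 252 and 267 in group 2. On α-amanitin the pools had 1170, 292, 330, 640, 562 and 453, all above the non-toxic pools. The log2 fold change was 1.40 (SE 0.34, adjusted p = 0.00495). The protamine genes *Mst35Ba* and *Mst35Bb*, which replace histones in the same nuclei, lie next to each other on 2L and had log2 fold changes of 0.89 (adjusted p = 0.0166) and 0.78 (adjusted p = 0.0285; at least 2.38-fold by the floor), under the fold limit. A further probe set named for both protamines together had 1.26 (adjusted p = 0.00982), with 33.5 ± 18.6 in group 2 and 108 ± 66.3 in group 3. *Mst35Bb* was at or under the floor in part of the non-toxic pools (1.25 to 24.8), and its groups overlapped.

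All 3 measured *S-Lap* genes were called. They encode leucyl-aminopeptidase-like proteins that are abundant in mature sperm. *S-Lap7* had 35.2, 48.6, 29, 65.2 and 63.6 in group 2 and 313, 89, 78.4, 161, 143 and 116 in group 3. *S-Lap8* had 49.1, 80.3, 36.8, 89.1 and 86 in group 2 and 389, 98.2, 96.8, 181, 176 and 150 in group 3. The groups did not overlap for either gene, nor for *S-Lap2*. The log2 fold changes were 1.21 for *S-Lap2* (adjusted p = 0.00898), 1.28 for *S-Lap7* (adjusted p = 0.00396) and 1.14 for *S-Lap8* (adjusted p = 0.023).

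**Figure D2:**
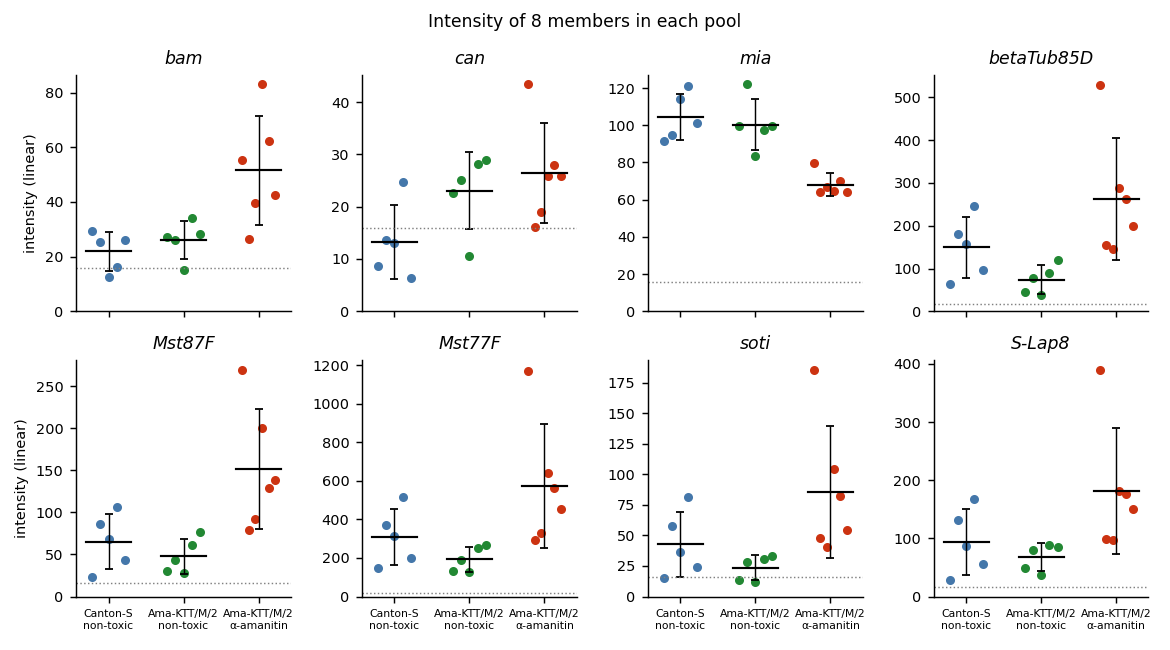
Linear array intensity (y axis, starting at 0, scaled for each gene) of 8 genes in every pool of the 3 groups; points are pools, horizontal lines group means, bars the SD over pools, and the dotted line the floor of 16. The sperm component genes and *soti* are high on α-amanitin and highest in replicate 1. That pool stands above the next of its group by 1.34-fold in *Mst87F* and by 2.15-fold in *S-Lap8*. *mia* is lower on α-amanitin (63.9 to 79.6) than in all other pools.

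The comet and cup genes split. *soti*, which encodes an inhibitor of the ubiquitin ligase that controls caspases during sperm individualization, and *w-cup* were called higher on α-amanitin, and the other 9 were not called. *soti* had 13.3, 28.6, 11.6, 31.1 and 33.5 in group 2 and 185, 48, 40.8, 104, 81.9 and 54.4 in group 3 (log2 fold change 1.26, SE 0.33, adjusted p = 0.00742). *w-cup* had 19.6, 34.6, 22.1, 39.6 and 39.9 in group 2 and 189, 48.1, 46.9, 102, 90.8 and 72.5 in group 3 (1.09, SE 0.28, adjusted p = 0.0061). In both, replicate 1 was the highest pool and the groups did not overlap. The remaining members had log2 fold changes between -0.09 (*p-cup*) and 0.36 (*c-cup*), and the median over the 11 was 0.13. *m-cup*, for example, had 120 ± 13.7 in group 2 and 137 ± 21.1 in group 3 (0.16, adjusted p = 0.204). *schuy* and *sunz* had means under 16 in every group and say little about these transcripts. mRNAs of the comet and cup genes are known for their place at the ends of elongating spermatids, a stage that the larval testis has not reached.

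Over the 12 early genes the median log2 fold change in group 3 versus group 2 was 0.07, and none was called, against 1.83% of all probe sets called higher. By their brightest probe sets, 1 had an adjusted p under 0.05 with a higher and 2 with a lower level, against 17.7% and 16.5% of all probe sets, so that these counts are near those of the array. *bam*, the switch from spermatogonial division to differentiation, had 27, 26.1, 15.2, 34.1 and 28.2 in group 2 and 55.3, 26.6, 39.5, 83.1, 62.3 and 42.4 in group 3. Only replicate 2 on α-amanitin overlapped the non-toxic pools, and the log2 fold change was 0.65 (SE 0.19, adjusted p = 0.0138). Unlike the sperm component genes, *bam* was highest in replicate 4. *twe*, the Cdc25 phosphatase of the meiotic divisions, had 57.2 ± 8.56 and 76.7 ± 10.2 (0.34, adjusted p = 0.232).

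*bol*, an RNA-binding protein that allows translation of *twe*, gave different answers by probe set. The brightest of its 3 probe sets had 120, 122, 121, 103 and 123 in group 2 and 72, 90.5, 88, 76.4, 69.4 and 77.7 in group 3, with no overlap (log2 fold change -0.50, SE 0.08, adjusted p = 0.000177). The second had 38.3 ± 3.97 and 71.8 ± 29.3, with no overlap in the other direction (0.64, adjusted p = 0.0215). The last was under 16 in every group. No single direction can be given for *bol*.

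Among the *can*-class TAF genes, *mia* (a TAF6 homologue) went the other way from the sperm genes. Its pools had 99.4, 122, 83.4, 97.4 and 99.4 in group 2 and 79.6, 63.9, 66.7, 64.7, 69.9 and 64.2 in group 3. All pools on α-amanitin were lower, by a log2 fold change of -0.46 (SE 0.08, adjusted p = 0.00051), under the fold limit. *sa* (a TAF8 homologue) had 67.8 ± 9.43 and 105 ± 47.0 (0.45, adjusted p = 0.0633), with replicate 1 on α-amanitin at 193 and the others at 59.3 to 112. *can* (a TAF5 homologue, 0.11) and *rye* (a TAF12 homologue, 0.05) differed by less than their standard errors of 0.17 and 0.23, and *nht* (a TAF4 homologue) was under the floor in every group.

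The *aly* class showed small differences between the foods. *aly*, *comr*, *tomb* and *topi*, which encode subunits of tMAC, had log2 fold changes of 0.08, -0.04, 0.12 and -0.07, with standard errors of 0.10 to 0.15. *topi* had 33.8, 48.7, 30.5, 45.3 and 42.9 in group 2 and 53.3, 41.1, 31.7, 30.7, 39.5 and 30.4 in group 3. *tomb* had 30.8 ± 5.99 and 34.6 ± 4.31. These genes were dim, and a p that misses the threshold does not show that their levels were alike.

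**Figure D3:**
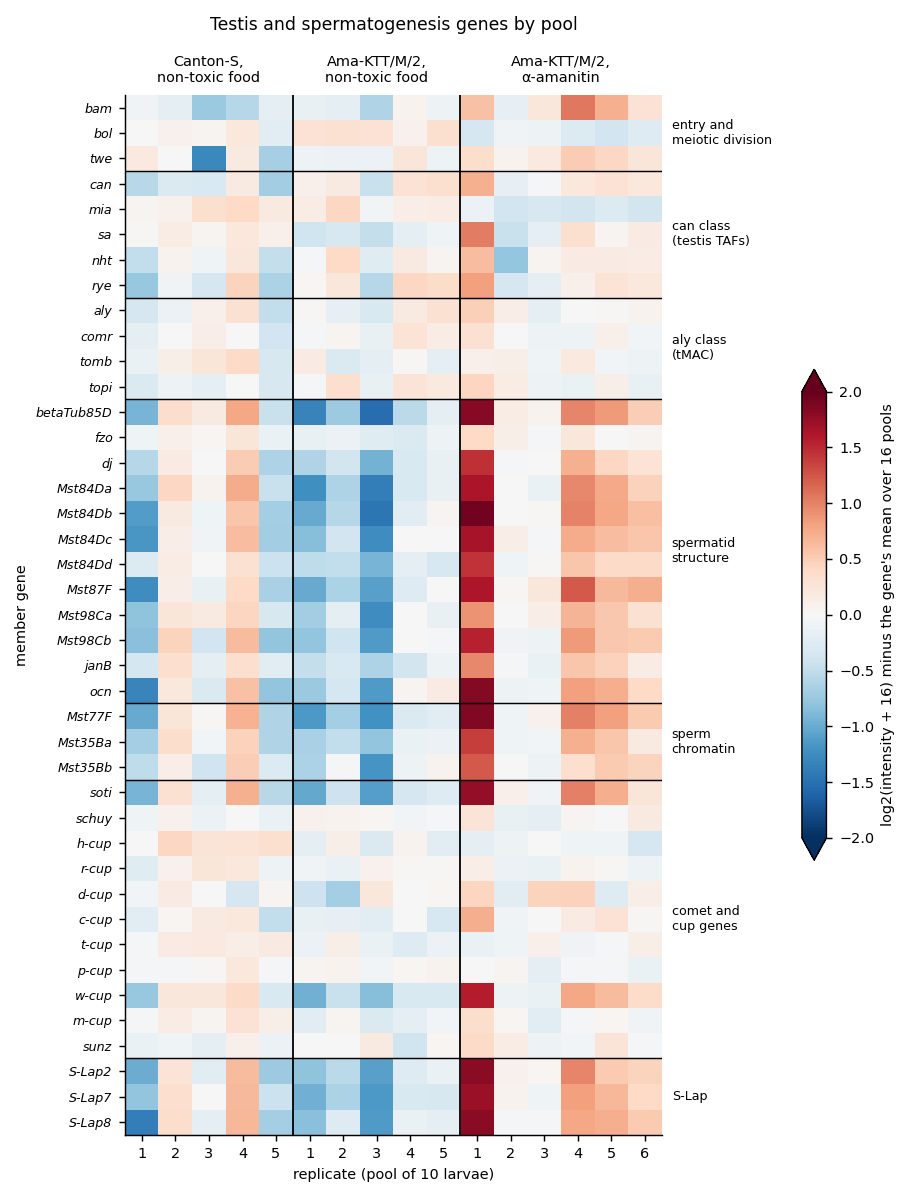
Each of the 41 genes (rows, by role) in each of the 16 pools (columns, by group and replicate number), coloured by its log2(intensity + 16) minus its own mean over the pools, with colours saturated beyond 2 on that scale. Whole columns of the sperm component genes shift together: replicate 1 on α-amanitin and replicate 4 of Canton-S are high, and replicate 3 of group 2 and replicate 1 of Canton-S are low.

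The sperm component genes varied more between pools of 1 group than most of the array, in all 3 groups. The median SD between pools on the log2 scale was 0.63 in Canton-S, 0.46 in group 2 and 0.60 in group 3 over these 18 genes, compared with 0.14, 0.12 and 0.13 over all probe sets. Of the 18 genes, 15, 13 and 15 exceeded the 95th percentile of the SD among the 15065 probe sets whose mean reached 16. The early genes had median SDs of 0.29, 0.19 and 0.22, and the comet and cup genes 0.15, 0.14 and 0.19.

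This variation was shared. In Canton-S, 13 of the 18 genes ranked the 5 pools in 1 identical order, replicates 4, 2, 3, 5 and 1, and replicate 4 exceeded replicate 1 by a median of 3.63-fold over the 16 genes at or above the floor in replicate 1. In group 2, 9 genes had the order 5, 4, 2, 1 and 3. On α-amanitin, 8 genes had the order 1, 4, 5, 6, 2 and 3, and replicates 2 and 3 were the lowest pair for 17 of the 18. At most 3 of the 12 early genes shared an order in any group, but most of them had the same extreme pools. Canton-S replicate 4 was the highest of its group for 9 of the 12 (8 of the 9 meiotic arrest genes), replicate 3 of group 2 the lowest for 10 (8 of 9), and replicate 1 on α-amanitin the highest for 8 (8 of 9). Genes measured in the same pool share its larvae and its RNA, so that these orders are a description of the pools and not independent repeats.

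Replicate 1 on α-amanitin was the highest of all 16 pools for each of the 18 sperm component genes and for 31 of the 41 genes. The share of all probe sets that were highest in that pool is not given here. These counts alone thus do not tell a trait of the genes from a trait of the array. For the 18 genes, replicate 1 stood above the next pool of its group by a median of 1.85-fold, with a range of 1.18- to 2.15-fold. The mean log2 value of the 18 genes was 8.09 in that pool and 6.58 to 7.36 in the other 5 pools on α-amanitin. It was 5.51 to 6.48 in group 2 and 5.77 to 7.13 in Canton-S. Every pool on α-amanitin thus lay above every pool of the same stock on non-toxic food, by a narrow margin, and Canton-S overlapped both.

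Without replicate 1 the direction stayed and the calls thinned. The number called higher in group 3 versus group 2 fell from 13 to 7, against 1.56% of all probe sets, and *Mst84Dc*, *Mst98Cb*, *ocn*, *S-Lap2*, *S-Lap8* and *w-cup* were lost. The median over the 41 genes moved from 0.45 to 0.33. Of the 18 sperm component genes, 15 still had an adjusted p under 0.05, and 6 were called: *betaTub85D* (1.37, adjusted p = 0.00417), *Mst84Da* (1.14), *Mst84Db* (1.12), *Mst87F* (1.17), *Mst77F* (1.17) and *S-Lap7* (1.05). *soti* (1.03) was the seventh call. *bol* and *mia* hardly moved, at -0.48 and -0.50.

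**Figure D4:**
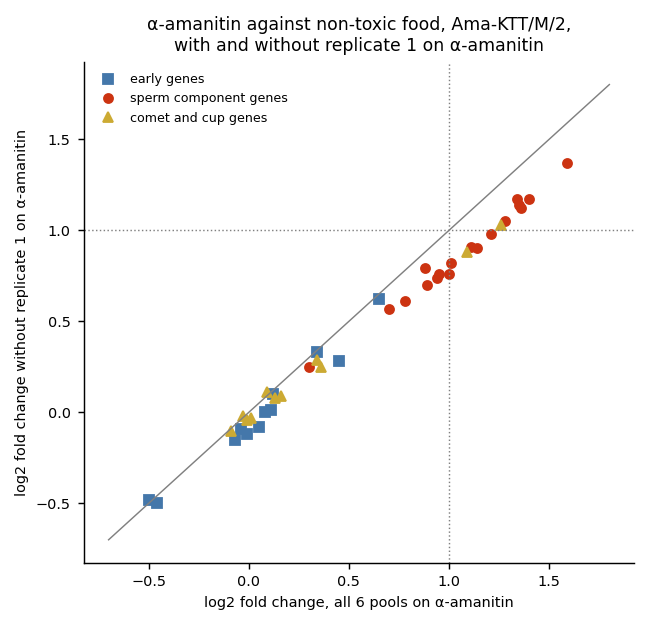
Log2 fold change in group 3 versus group 2 with all 6 pools on α-amanitin (x axis) and without replicate 1 (y axis) for the 41 genes; symbols mark the early, sperm component and comet and cup genes, the diagonal marks equality and dotted lines mark 2-fold. All 18 sperm component genes lie under the diagonal and above 0 on both axes.

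Between the stocks on non-toxic food, the sperm component genes lay on 1 side of 0 without passing the test. All 18 had a lower mean log2 value in group 2 than in group 1, with a median of -0.36 and a range of -0.85 to -0.08, and none had an adjusted p under 0.05, against 18.8% of all probe sets with a lower level. *betaTub85D* had the lowest value (-0.85, SE 0.36, adjusted p = 0.0683). The groups overlapped for all 18 genes, while 12.9% of all probe sets had every pool lower in group 2. The median was -0.20 without Canton-S replicate 4, -0.22 without replicate 3 of group 2 and -0.52 without Canton-S replicate 1. Since their pools vary together, 18 values on 1 side are not 18 separate observations. The median over the 41 genes was -0.26, against 0.01 over all probe sets.

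A few of the remaining genes differed between the stocks by less than 2-fold. *h-cup* had 57.4, 81.5, 71.3, 72.3 and 74.9 in Canton-S and 48, 63.2, 43.7, 60.3 and 46 in Ama-KTT/M/2 (-0.36, adjusted p = 0.00469). The pools overlapped between 57.4 and 63.2. *t-cup* (-0.23, adjusted p = 0.0176; mean in group 2 under the floor, at least 1.21-fold) and *m-cup* (-0.26, adjusted p = 0.0392) were lower as well, whereas *topi* was higher, with 29.4 ± 4.23 and 40.2 ± 7.75 (0.30, adjusted p = 0.0444). *sa* was lower in every Ama-KTT/M/2 pool (57.2 to 80.1) than in every Canton-S pool (88.3 to 102), yet its adjusted p was 0.0987. By the brightest probe set, 2 genes had a higher and 3 a lower level at an adjusted p under 0.05, against 24.6% and 18.8% of all probe sets. The 2 include *bol* (0.23, adjusted p = 0.0308), whose second probe set had -0.21 (adjusted p = 0.459). The second probe set of *rye* had 51.6 to 57.7 in Canton-S and 73 to 92.2 in Ama-KTT/M/2, without overlap (0.43, adjusted p = 0.000188), while its brightest had 0.36 (adjusted p = 0.255).

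Ama-KTT/M/2 larvae on α-amanitin were also compared with Canton-S on non-toxic food. These comparisons share pools, and each is given by its own values. *Mst87F* was the only gene of the 41 called in group 3 versus group 1, and it was higher (1.05, SE 0.32, adjusted p = 0.0183), with 65.3 ± 33.2 in Canton-S and 151 ± 71.3 on α-amanitin; 1.53% of all probe sets were called higher and 1.63% lower. All 18 sperm component genes had log2 fold changes above 0 (0.09 to 1.05, median 0.69). The pools of the 2 groups overlapped in every case, while 11.1% of all probe sets had every pool higher on α-amanitin. The call of *Mst87F* was lost without replicate 1 on α-amanitin (0.87, adjusted p = 0.0412), as well as without Canton-S replicate 1 or 5 or without replicate 4 on α-amanitin. Without Canton-S replicate 4, the highest pool of that group, 7 genes were called higher. *bam* was higher on α-amanitin (0.80, adjusted p = 0.00351), and *mia* (-0.51, adjusted p = 0.000154), *h-cup* (-0.39, adjusted p = 0.00308) lower, all under 2-fold. For *bol* the brightest probe set had -0.26 (adjusted p = 0.018) and the second 0.43 (adjusted p = 0.116). *twe* (0.62, adjusted p = 0.0342) and *can* (0.54, adjusted p = 0.0275) were higher; *can* had a mean of 13.3 in Canton-S, under the floor, and was at least 1.65-fold higher. Without the fold limit, and with each gene read from its brightest probe set, 4 of the 41 genes had a higher level by this adjusted p and 3 a lower one, against 19% and 11.7% of all probe sets. The pools of *mia* and *h-cup* lay wholly under those of Canton-S, as did 7.7% of all probe sets.

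The larvae of the 3 groups differed in markers of developmental stage, which moved with the same comparison. The salivary gland glue genes, whose products the salivary gland makes before pupariation, had summed intensities of 6.04 to 14.5 in group 2, of 1640 to 26436 in Canton-S and of 8.04 to 51929 on α-amanitin. All 6 glue genes were called lower in group 2 versus group 1 and higher in group 3 versus group 2, and each had a mean under 16 in group 2. The 3 late fat body genes *Lsp2*, *Fbp1* and *Fbp2* had summed intensities of 11.9 to 1221, 12726 to 28777 and 2795 to 31575 in the same order of groups, and all 3 were higher in group 3 versus group 2. The part of stage in the result was not tested.

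Replicate 2 on α-amanitin had the glue level of group 2 (mean log2 value 4.11, compared with 4.08 to 4.19). Its late fat body genes did not have that level. Their mean log2 value was 6.88, above every pool of group 2 (4.29 to 6.47) and under the other pools on α-amanitin (11.18 to 13.28). The mean log2 value of the 18 sperm component genes in this pool was 6.6, near the lowest on that food (6.58). In this pool 14 of the 18 sperm component genes lay above every pool of group 2, against 25.3% of all probe sets. Replicate 3 on α-amanitin, with a high glue value of 12.19, had the lowest mean of the sperm component genes on that food, and 12 of its 18 genes lay above every pool of group 2, against 24.9% of all probe sets. Replicate 4 on α-amanitin, with the highest glue value on that food (12.95), had a sperm component mean of 7.36, under replicate 1 alone. In Canton-S, replicate 4 had the lowest glue value (6.76, others 10.18 to 11.71) and the highest sperm component mean. The part of stage in these values was not tested.

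**Figure D5:**
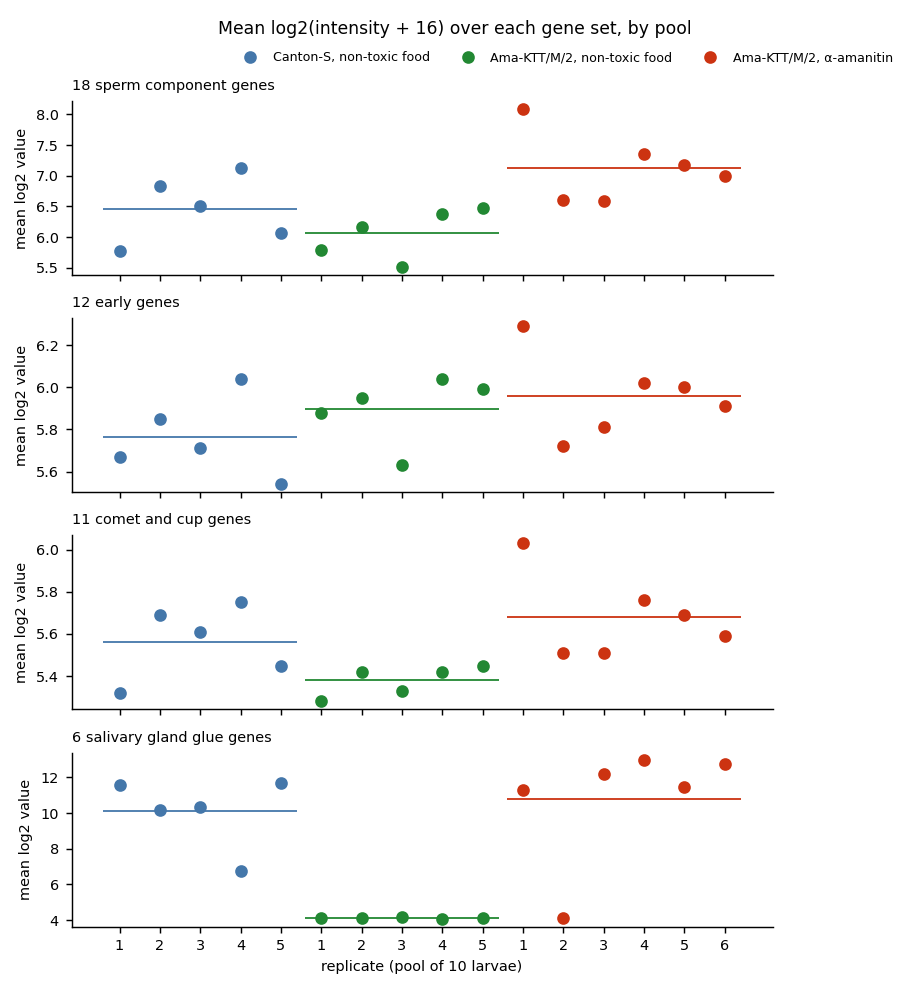
Mean log2(intensity + 16) (y axis, own scale in each panel, not starting at 0) in each pool (x axis) over the 18 sperm component, 12 early, 11 comet and cup and 6 glue genes; points are pools and lines group means. The sperm component mean is 6.58 or higher in all 6 pools on α-amanitin and 6.48 or lower in the 5 pools of the same stock on non-toxic food, while glue is near the floor in group 2 and in replicate 2 on α-amanitin.

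Further genes of the testis were counted from lists that were chosen with earlier results of these data known. Of 39 other spermatogenesis genes 33 were measured, and in group 3 versus group 2 *Mst27D*, a testis-specific gene, was called higher and none lower; 10 had an adjusted p under 0.05 with a higher level and 0 with a lower one, and the median was 0.20. Over all probe sets, 17.7% had such a higher and 16.5% such a lower level, and 1.83% were called higher and 1.11% lower. *Mst27D* had 29.2 ± 12.0 in group 2 and 84.4 ± 36.5 in group 3 (1.12, adjusted p = 0.00108). The 10 include *Mst33A* (0.86, adjusted p = 0.0317), the sperm chromatin gene *Prtl99C* (0.53, adjusted p = 0.0374), *Hsp60B* (0.53, adjusted p = 0.0102), a testis chaperonin, and the testis-specific proteasome subunit genes *Prosalpha3T* (at least 1.19-fold), *Prosalpha4T1* (at least 1.08-fold) and *Prosalpha6T* (1.23-fold), the first and second with means under the floor in group 2. *S-Lap5*, a further member of the aminopeptidase family, had 43.9 ± 7.28 in group 2 and 59.2 ± 13.6 in group 3 (0.32, adjusted p = 0.0251).

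*vis*, one of a pair of homeobox regulators that act with tMAC, was the single gene of this list that was called between the stocks. A count of 1 in 33 is near the share of all probe sets (3.27% called higher, 2.42% lower). It had 18.7 ± 9.44 in Canton-S and 155 ± 25.3 in group 2, without overlap (2.33, adjusted p = 1.2e-07). On α-amanitin it had 177 ± 54.1, and the foods did not separate (0.15, adjusted p = 0.595). Its partner *achi* had 24.8 ± 3.65, 26.4 ± 6.19 and 31.9 ± 3.91 in groups 1, 2 and 3, and no call. The near-identical sequences of *vis* and *achi* can share probe targets, which makes the split between them uncertain.

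Markers of other cells in or near the male germline were read from the same arrays. None of the 7 measured Y-linked genes out of 12 was called in any comparison, and 4 of the 7 were under the floor in every group. At an adjusted p under 0.05, 2 of the 7 were higher and 1 lower in group 3 versus group 2. Over all probe sets the shares were 17.7% and 16.5%. The higher genes were *kl-3*, under the floor in every group, and *kl-5*, a Y-linked dynein heavy chain of the sperm tail. *kl-5* had 6.85 ± 3.22 in group 2 and 16.3 ± 2.68 in group 3 (adjusted p = 0.000264), a difference of at least 1.02-fold from a mean under the floor. The lower gene, *Ppr-Y*, had 32.4 ± 2.8 and 20.6 ± 3.75 (-0.41, adjusted p = 0.00387). *Pp1-Y2* was lower in group 2 than in Canton-S without overlap (-0.42, adjusted p = 0.00336), a pattern found in 12.9% of all probe sets. None of the 5 genes of somatic testis cells was called, and their median log2 fold change in group 3 versus group 2 was 0.04. *eya*, which is also used in other larval tissues such as the eye disc, had 66.0 ± 12.0, 33.4 ± 7.83 and 62.9 ± 11.1 in groups 1, 2 and 3. It was higher in group 3 versus group 2 without overlap (0.68, adjusted p = 0.000504), under 2-fold. The other genes of this list had -0.02 (*so*) to 0.13 (*zfh1*) in that comparison. None of the 6 measured germline genes of either sex was called in group 3 versus group 2 (median 0.03), with *vas*, the germline helicase, at 14.2 ± 3.99 and 16.6 ± 2.31 and *zpg* under the floor throughout. None of the 13 measured accessory gland genes of adult males was called, and 7 were under the floor in every group. Over all probe sets, 1.11% to 3.27% were called in a given direction of a comparison. For lists this short, counts of 0 are near that share and say little about these cells. The part of the share of males in a pool was not tested.

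As a check of the arrays, no pair of the 120 array pairs was identical. Array medians lay between 62.4 and 72.9, and 19.3% to 22.9% of the probe sets of an array had intensities under 16. Of the measured genes, 20 lie on 3R, 9 on 2L, 7 on 3L, 3 on 2R and 2 on the X chromosome of the Release 6 assembly.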

How the data were processed

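RNA of whole larvae was hybridised to Affymetrix Drosophila Genome 2.0 arrays (16 arrays, 3 groups by the labels). The authors deposited intensities on a linear scale, extracted with Affymetrix Expression Console 1.2 per the labels and, by the methods, summarised with PLIER after quantile normalization and mismatch adjustment. Control probe sets (183 of 18952) were left out, and 13646 probe sets had 1 gene, 402 several and 4721 none named. Each gene was read from its brightest probe set.

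Log2(intensity + 16) was fitted with limma 3.58.1 in R 4.3.3 (lmFit and eBayes, 3 groups, no covariate, no filter), with Benjamini-Hochberg adjustment over all probe sets of a comparison. A group mean under 16 was used as a bound ("at least"), namely the brighter mean over 16. The rank product test of the methods was not run. The fit was tested on simulated data. Members, lists, roles and tests were chosen with earlier results of these data known. The rule for named genes took the members with a mean of at least 16 in 1 group or more, first those called and then the brightest of each role, and the called genes of the further lists. Other genes named from those lists, and members given beyond the brightest, were chosen after their values were seen. Precision is limited by the number of arrays. Alternatives were offsets of 1 and 64, a filter at a mean of 64, another quantile normalization, a replicate block, the 2 compared groups alone, a prior trend, every probe set on its own and leaving out each pool. Promoter and protein sequences were not analysed here. Figures were drawn with Python 3.11.15 and matplotlib 3.10.9.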

Additional observations from a re-analysis of the deposited data

Results flagged for a closer look

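In 6 of 123 sets of pools (41 genes in 3 groups), 1 pool lay far from the others of its group by Dixon's criterion at 95%. Chance alone gives this in about 1 in 20 groups. The criterion was applied on the log2(intensity + 16) scale, while the values given below are linear intensities. In group 2 (Ama-KTT/M/2, non-toxic), *bol* was 103 in replicate 4 (others 120 to 123) and *twe* was 72.5 in the same pool (others 53 to 53.7). In that group *can* was 10.6 in replicate 3 (others 22.7 to 28.9) and *p-cup* was 24.8 in replicate 3 (others 27.4 to 28.4). In Canton-S, *t-cup* was 15.5 in replicate 1 (others 19.4 to 21) and *p-cup* was 32.6 in replicate 4 (others 25 to 26.7). None of the 6 pools was replicate 1 on α-amanitin. This does not clear that pool, which was the highest of all 16 for 31 of the 41 genes. On the log2 scale a high pool lies closer to the rest than on the linear scale.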

How the results depend on the processing

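With an offset of 64, 3 genes in place of 13 were called higher on α-amanitin than on non-toxic food in Ama-KTT/M/2 (*betaTub85D*, *Mst84Db* and *Mst77F*), since a larger offset shrinks the fold of dim genes. Leaving out 1 pool at a time gave 7 to 15. Against Canton-S, where 1 gene was called higher on α-amanitin, there were 3 with an offset of 1, 0 with 64 in its place, 0 after another quantile normalization and 0 to 7 with 1 pool left out. Between the stocks, where 0 were called lower, the range with 1 pool left out was 0 to 1. The other settings kept these counts within 1.5 times. No direction reversed among the genes with an adjusted p under 0.05 in the main fit. Genes near 0 could change sign, as *rye* did on α-amanitin versus non-toxic food (0.05, and -0.08 without replicate 1 on α-amanitin). The medians over the 41 genes moved by less than their spread between pools (SD 0.32). For single genes, 35 results with an adjusted p under 0.05 in the main fit were followed, whether called or not. Of their 770 values under other settings, 716 kept their status, 42 lost a call and 12 gained one. The 716 include genes that were not called and stayed so, and thus do not measure how stable the calls were. The replicate numbers did not pair the pools: deviations of same-numbered pools correlated at -0.42 to 0.27 (median 0.07, 15 pairs), and those of other pools at -0.53 to 0.34 (median -0.01, 70 pairs). With the replicate block, 11 genes in place of 13 were called (*ocn* and *S-Lap8* lost). The floor of 16 limits *nht*, *schuy* and *sunz*, for which no fold is given.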
